A study of Mus musculus with 18 samples.

Results

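The genes described here are the 44 protein-coding collagen genes of the mouse, chosen by a symbol made of Col, a type number, the letter a and a chain number, out of 55487 genes in the count tables, 21936 of them protein-coding. The 18 libraries hold RNA of alphaTC1, an alpha cell line from the mouse pancreas. Cells of experiment 1 were transduced with an empty vector (EV, 3 libraries) or with an shRNA against Smndc1, a splicing factor (shSmndc1, 3 libraries), and were taken at day 5 after transduction. In experiment 2, all cells also carried RIP-mCherry, a reporter in which the rat insulin promoter drives a red fluorescent protein. They received either the empty vector (EV_RIP, 4 libraries) or the shRNA. The shRNA cells were collected without the reporter signal (shSmndc1_RIP_neg, 4 libraries, called negative cells) or with it (shSmndc1_RIP_pos, 4 libraries, called positive cells). The labels mention no sorting for EV_RIP and no day of collection for experiment 2. The part of sorting in the differences of negative or positive cells from EV_RIP was not tested. The labels name 1 cell line and no clone, and do not say whether replicates were separate cultures, so what the p-values weigh against is spread among libraries that may be technical.

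Collagens are secreted proteins whose alpha chains wind into a triple helix, either as copies of 1 chain or as a set of different chains that need each other. Fibrillar collagens build fibres, type IV builds the sheets of basement membranes, type VI builds beaded microfilaments, and other types sit on fibres, anchor them, or span the cell membrane. In pancreatic islets most collagen is made by endothelial and stromal cells around the endocrine cells, which attach to it through receptors.

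The depth ranged from 37233000 to 66676000 counts per library in experiment 1 and from 8084600 to 103050000 in experiment 2, where negative replicate 3 was the shallowest. Collagen genes together took 0.00566% to 0.0169% of the counts of a library. Smndc1, the target, stood at 35.1 to 41.9 CPM (counts scaled to library size after TMM scaling) in EV and 9.52 to 10.5 CPM in shSmndc1. Positive cells held 16.0 to 25.2 CPM of it against 37.6 to 54.9 CPM in EV_RIP, while negative cells ranged from 23.9 to 44.6 CPM and overlapped their controls. Of 8 alpha cell markers, 6 averaged at least 1 CPM in every group and Gc was at 0 in all 5 groups. Negative replicates 2, 3 and 4 stood apart with 18.6, 161 and 45.4 CPM of Rn7sk, a small nuclear RNA that is not polyadenylated, against 5.24 to 14.2 CPM in EV_RIP. In negative replicate 1 it was 4.53 CPM. EV_RIP replicate 1 stood apart with 0.587% of its counts from mitochondrial genes, against 2.34% to 4.76% in the other 17 libraries, and had the lowest level of the nuclear RNA Malat1 (109 CPM).

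Most collagen genes were barely transcribed in alphaTC1 cells. On the deposited FPKM scale, which divides by gene length and so allows levels of different genes to be compared, 7 genes reached a mean of 1 FPKM in any group and 25 reached 0.1 FPKM. The highest was Col11a2, the alpha2 chain of the fibrillar type XI, with 3.85 ± 3.38 FPKM in EV (SD, n = 3) and 2.85 ± 1.58 FPKM in EV_RIP (SD, n = 4). Next in the controls came Col20a1, of the FACIT class that decorates fibrils, with 1.53 ± 0.772 FPKM in EV, and Col27a1, a fibrillar collagen of cartilage, with 1.44 ± 0.25 FPKM. These 3 means differ by less than the spread of Col11a2 between the EV libraries. The other 4 were Col1a2, Col6a1, Col9a3 and Col22a1. 6 of the 44 genes held at most 10 counts over all 18 libraries.

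**Figure D1:**
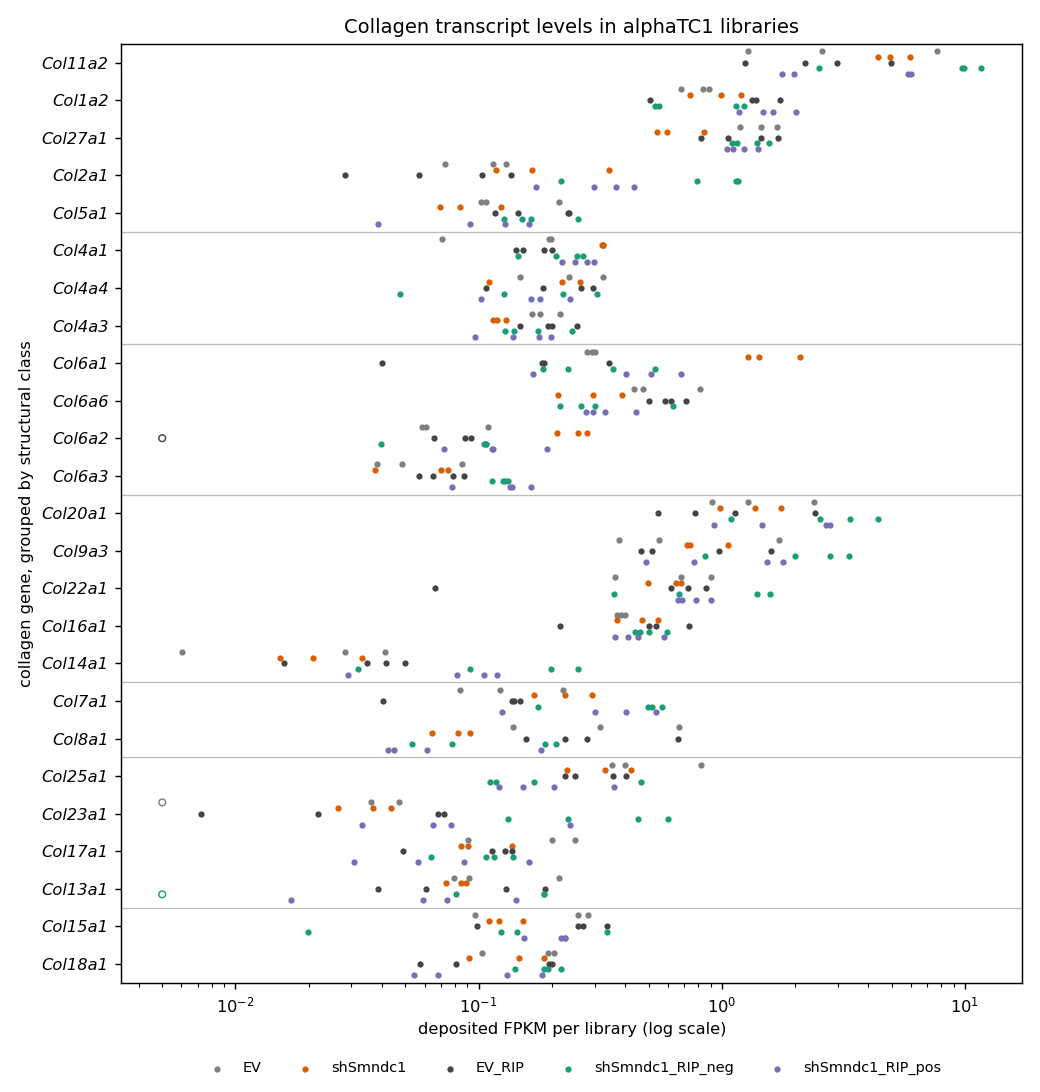
Deposited FPKM in each library (log scale) for the 25 collagen genes with a mean of at least 0.1 FPKM in any group, 1 dot per library, coloured by group and separated by lines into structural classes; open circles at the left edge are libraries below the axis. Col11a2 reaches the highest values, and the shSmndc1 libraries of Col6a1 lie to the right of all other libraries of that gene.

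Chains that share a triple helix stood at unequal levels. Type I collagen needs alpha1 and alpha2 chains, yet Col1a2 averaged 0.803 ± 0.109 FPKM in EV (SD, n = 3) and Col1a1 0.0357 ± 0.0188 FPKM. Type XI uses Col11a1 beside Col11a2, and Col11a1 held 1 count in 18 libraries. Of the type IX chains, Col9a3 averaged 0.881 ± 0.727 FPKM in EV, Col9a2 0.0135 ± 0.0126 FPKM and Col9a1 0.00197 ± 0.00342 FPKM. The fibrillar gene Col3a1, which is not one of these helix partners, averaged 0 FPKM in every group except positive cells, at 0.00118 FPKM. In bulk RNA, fewer cells with a transcript and less of it per cell cannot be told apart, so these values do not say whether partner chains were made in the same cells.

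A call below means an adjusted p under 0.05 in the quasi-likelihood test of edgeR (Benjamini-Hochberg over all genes tested). After the filter on low counts, 25 of the 44 genes were tested in experiment 1 and 30 in experiment 2, all 25 among them. In shSmndc1 against EV, Col6a1 and Col6a2 rose and Col27a1 and Col8a1 fell, 4 of 25, beside 14.7% of all genes tested (7.22% higher and 7.5% lower). Against EV_RIP, negative cells had 7 of 30 higher and 0 lower, beside 8.17% higher and 5.69% lower over all genes. Positive cells had 4 of 30 higher and 1 lower, beside 8.47% higher and 8.92% lower. The median log2 fold change of the tested collagen genes was -0.07 in experiment 1, 0.63 in negative and 0.42 in positive cells, and that of all genes was -0.0029, -0.0090 and 0.0011. This median depended on level. For the 16 collagen genes at 1 to 10 CPM it was 0.0229 in negative and 0.13 in positive cells, against 0.0365 and 0.0263 for all genes there. Under 1 CPM it was 1.19 and 0.953 for 12 collagen genes, against 0.382 and 0.344 for all genes there. Without EV_RIP replicate 1, 1 collagen gene was higher and 0 lower in negative cells (359 genes higher and 180 lower in all), and the same numbers of collagen genes in positive cells (755 and 810 in all). The last 2 comparisons share the EV_RIP libraries, so their values are given side by side and are not independent. Ranges of CPM in the 2 groups compared did not overlap for 8 of 25 collagen genes in experiment 1, beside 39.5% of all genes tested. In negative cells this held for 6 of 30 beside 14.4%, and in positive cells for 4 of 30 beside 23.4%.

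**Figure D2:**
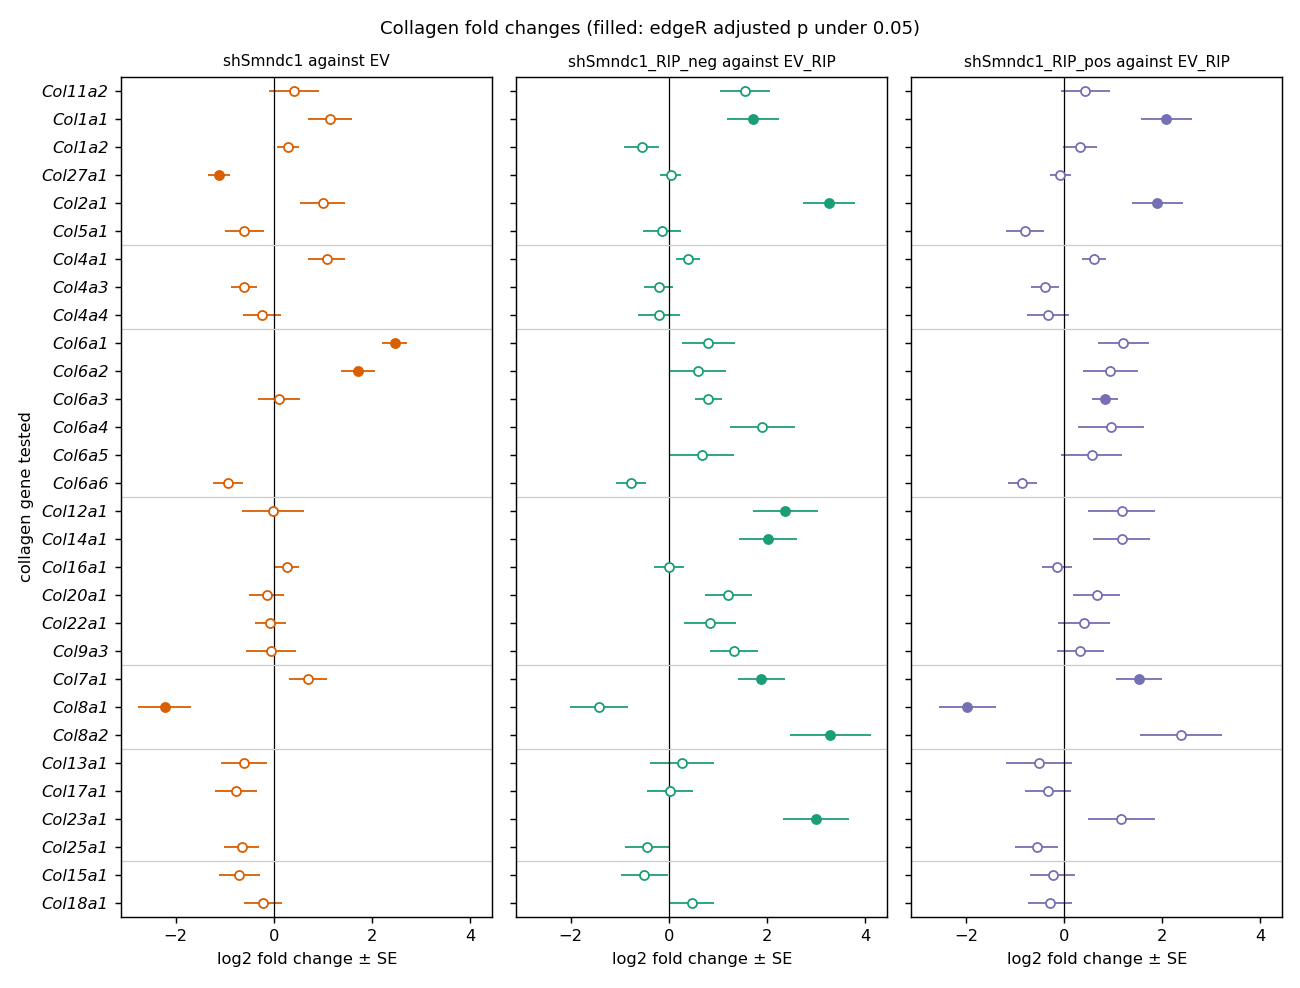
Log2 fold change with its standard error for the 30 collagen genes tested in either experiment, 1 panel per comparison, with filled points for adjusted p under 0.05 and lines between structural classes. The filled points are Col6a1, Col6a2, Col27a1 and Col8a1 at the left, 7 genes right of 0 in the middle, and 4 right and 1 left of 0 at the right.

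Type VI collagen is assembled from Col6a1, Col6a2 and another, longer chain such as Col6a3 or Col6a6, and Col6a1 and Col6a2 lie 85161 bases apart on chromosome 10 in the same direction. Their promoters are shown because both genes rose in experiment 1. The windows run from 250 bases before to 50 after the start (RefSeq, GRCm38.p6, strand -), at chr10:76725995-76726294 for Col6a1 and chr10:76623355-76623654 for 1 of 2 listed starts of Col6a2. The other window of Col6a2 (chr10:76623581-76623880), set at the deposited gene start, holds 1 GGGCGG and 0 GGAATG. Capitals mark TGANTCA (the AP-1 element) in Col6a1, and GGGCGG (the GC box) and GGAATG (the TEAD element) in Col6a2, each searched on both strands.
Col6a1: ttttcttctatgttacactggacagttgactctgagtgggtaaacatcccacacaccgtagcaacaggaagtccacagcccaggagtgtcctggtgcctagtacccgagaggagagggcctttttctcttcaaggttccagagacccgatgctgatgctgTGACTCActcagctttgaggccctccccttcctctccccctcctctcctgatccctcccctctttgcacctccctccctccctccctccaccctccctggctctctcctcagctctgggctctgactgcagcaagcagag
Col6a2: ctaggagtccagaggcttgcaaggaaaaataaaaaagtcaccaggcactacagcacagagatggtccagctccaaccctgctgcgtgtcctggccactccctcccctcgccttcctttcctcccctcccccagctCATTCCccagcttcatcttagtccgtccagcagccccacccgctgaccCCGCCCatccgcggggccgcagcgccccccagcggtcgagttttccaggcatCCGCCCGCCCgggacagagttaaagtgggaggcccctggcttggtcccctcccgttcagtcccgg
TGANTCA was found in the promoter of 1 of 35 collagen genes with a window, Col6a1, and in 7.81% of all 32851 promoters (8.97% of genes). GGAATG was found in 5 of 35, and in 14.7% of all promoters (16.6% of genes). GGGCGG was found in 22 of 35, or 62.9% of collagen genes with it in any window, against 38.2% of all 27025 genes counted likewise, and in 60.5% of the 38 collagen windows against 35.7% of all promoters. Taking the window of highest GC content of each gene, the median was 60.0% for collagen genes and 53.3% for all genes. A match is a description of letters and not a binding site.

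Col6a1 stood at 1.25, 1.15 and 1.21 CPM in EV replicates 1 to 3 and at 5.3, 5.9 and 8.82 CPM in shSmndc1. Every shSmndc1 library was above every EV library, and the EV libraries were nearly equal. With a log2 fold change of 2.47 (SE 0.255), the adjusted p by edgeR was 0.00383, and the call held in all 11 alternatives tried. For Col6a2 the EV libraries held 0.663, 0.35 and 0.366 CPM and the shSmndc1 libraries 1.55, 1.68 and 1.29 CPM, again without overlap. Its log2 fold change was 1.72, with SE 0.345 and an edgeR adjusted p of 0.0168, which rose to 0.0687 or 0.0909 when EV replicate 2 or 3 was left out and to 0.0693 when shSmndc1 replicate 2 was. Col6a3 was not called, its EV libraries holding 0.418, 0.525 and 0.938 CPM and its shSmndc1 libraries 0.41, 0.766 and 0.837 CPM.

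In experiment 2 the pair was not called. Levels of Col6a1 were 0.75, 0.765, 1.43 and 0.166 CPM for EV_RIP, 2.2, 0.758, 0.962 and 1.47 CPM in negative cells, and 2.8, 1.65, 2.1 and 0.69 CPM in positive cells. The groups overlapped, with EV_RIP replicate 4 the lowest of all, and the log2 fold change in positive cells was 1.21 (SE 0.526, edgeR adjusted p = 0.119). Col6a2 gave 0.94 (SE 0.558, edgeR adjusted p = 0.249) in positive cells. For Col6a1 the effects in experiment 1 and in positive cells differed by 1.27 on the log2 scale (SE 0.689, edgeR adjusted p = 0.998), so a difference between experiments was not shown.

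Col6a3 was called in positive cells, where it had 1.79, 1.49, 0.845 and 1.47 CPM against 0.855, 0.618, 0.713 and 0.952 CPM in EV_RIP. Positive replicate 3 lay inside the EV_RIP range and the other positive libraries above it. This gave a log2 fold change of 0.84 (SE 0.270) with an adjusted p by edgeR of 0.0444, and the call held in 7 of 19 alternatives. The adjusted p was 0.0737, 0.087 and 0.0999 without EV_RIP replicates 1, 2 and 3, 0.108, 0.108 and 0.0962 without positive replicates 1, 2 and 4, and 0.0594, 0.0516 and 0.0549 without negative replicates 2, 3 and 4, which share the estimate of the spread. In negative cells Col6a3 had 1.41, 1.37, 1.44 and 1.23 CPM, all above EV_RIP, at 0.80 on the log2 scale (edgeR adjusted p = 0.0641).

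Col6a6, an alternative to Col6a3 in the helix, had the highest level of the type VI chains in the controls, with 0.574 ± 0.209 FPKM in EV and 0.605 ± 0.086 FPKM in EV_RIP. Its EV libraries held 4.4, 7.45 and 4 CPM against 3.58, 2.73 and 2 CPM in shSmndc1, without overlap, and the log2 fold change was -0.93 (adjusted p by edgeR = 0.0725). In positive cells the values were 4.11, 2.69, 2.53 and 3.05 CPM against 5.71, 4.65, 6.61 and 5.4 CPM in EV_RIP, also without overlap, at -0.85 (edgeR adjusted p = 0.0612). Neither passed the test, while DESeq2 gave adjusted p = 0.0215 and 0.0286 for the pair, and both were called by edgeR with no filter on low counts (0.00454 and 0.037). In experiment 1 the chains stood at 1.6 ± 0.434 FPKM for Col6a1, 0.248 ± 0.0348 for Col6a2, 0.0609 ± 0.0205 for Col6a3 and 0.299 ± 0.0873 for Col6a6 after the knockdown (SD, n = 3).

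**Figure D3:**
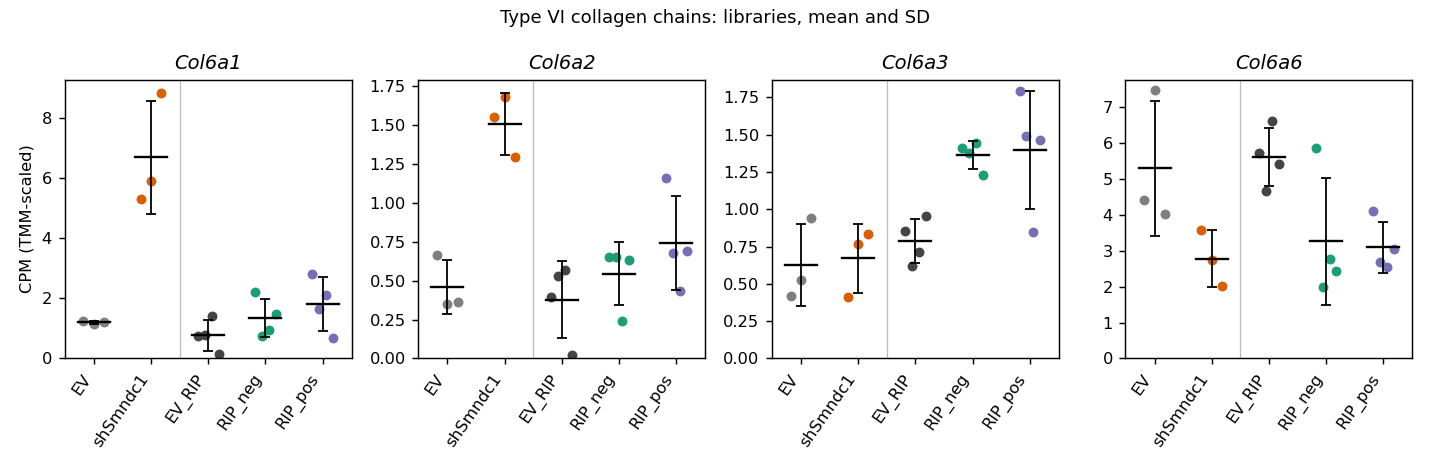
CPM of 4 type VI collagen chains in each library, with the mean (horizontal line) and SD (error bar) of each group and a grey line between experiments. Col6a1 lies between 5.3 and 8.82 CPM in shSmndc1 and at or below 2.8 CPM in every other library, while Col6a6 lies between 2 and 3.58 CPM in shSmndc1 and between 4 and 7.45 CPM in EV.

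Among the fibrillar collagens, 6 of 11 were tested in each experiment. Col27a1 was the one that fell in experiment 1, its EV libraries holding 9.14, 12.8 and 11.2 CPM and its shSmndc1 libraries 4.57, 4.15 and 6.57 CPM. No library of one group reached the other. This was a log2 fold change of -1.12 with SE 0.222 and an adjusted p by edgeR of 0.0164, lost when EV replicate 2 or 3 was left out (0.0662 and 0.0804) or shSmndc1 replicate 2 was (0.0635). In experiment 2 the same gene had log2 fold changes of 0.04 in negative and -0.08 in positive cells. Between experiment 1 and positive cells its effects differed by -1.03 (experiment 1 minus positive cells, SE 0.323, unadjusted p = 0.00471), which did not pass edgeR's adjustment over all genes (adjusted p = 0.998). Its promoter is shown as that of a gene called in experiment 1, with GGGCGG in capitals (chr4:63215162-63215461, RefSeq, GRCm38.p6, strand +).
Col27a1: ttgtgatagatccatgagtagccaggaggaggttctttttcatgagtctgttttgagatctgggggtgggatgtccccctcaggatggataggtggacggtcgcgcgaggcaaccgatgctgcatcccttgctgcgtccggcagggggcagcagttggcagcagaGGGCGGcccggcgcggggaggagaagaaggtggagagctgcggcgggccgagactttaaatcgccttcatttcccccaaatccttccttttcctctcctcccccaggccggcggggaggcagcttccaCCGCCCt

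Col1a1, the alpha1 chain of type I collagen, was called in both groups of experiment 2. Its levels were 0.0834, 0.118, 0.259 and 0.0207 CPM for EV_RIP, 0.34, 0.355, 0.361 and 0.596 CPM in negative cells, and 0.379, 0.732, 0.436 and 0.604 CPM in positive cells. All 8 shRNA libraries were above all 4 EV_RIP libraries, although these are 1 to 16 counts in EV_RIP. The 0.361 CPM of negative replicate 3 is near the 0.371 CPM that 3 counts make at its depth. In positive cells the log2 fold change was 2.09 (SE 0.510; adjusted p by edgeR, 0.0156), where the call was lost without positive replicate 2 (0.057). In negative cells it was 1.71 (SE 0.530, edgeR adjusted p = 0.0455), and 5 of 18 alternatives kept the call; the adjusted p lay between 0.0508 and 0.155 without EV_RIP replicate 1, 2 or 4, negative replicate 2, 3 or 4, or any 1 positive library. Without EV_RIP replicate 3, the highest control, the values were 2.72 in positive and 2.33 in negative cells. In experiment 1 the EV libraries held 0.344, 0.136 and 0.16 CPM of Col1a1 and the shSmndc1 libraries 0.367, 0.526 and 0.507 CPM (log2 fold change 1.14, edgeR adjusted p = 0.116). Its partner Col1a2, far more abundant, was called in none of these comparisons, with log2 fold changes of 0.30, -0.55 and 0.34. Col5a1, which helps to start type I fibrils, had -0.61, -0.13 and -0.80 and was not called.

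Col2a1, the main fibrillar collagen of cartilage, had the smallest adjusted p of the collagen genes in negative cells. It stood at 0.292, 0.697, 0.534 and 0.145 CPM in EV_RIP and at 1.13, 4.06, 6.01 and 5.88 CPM in negative cells. Negative replicate 1 was the lowest of the 4 and still above EV_RIP. Its log2 fold change there was 3.27 (SE 0.535) with an adjusted p by edgeR of 0.00801, and the call held without any single library but was lost without negative replicates 3 and 4 together (2.59, adjusted p = 0.14). Positive cells had 0.884, 1.52, 1.88 and 2.24 CPM, all above EV_RIP, at 1.90 (SE 0.519, edgeR adjusted p = 0.0249). That call was lost without EV_RIP replicate 1 or 4 (0.071 and 0.0513) or positive replicate 2, 3 or 4 (0.0555, 0.0553 and 0.064). In experiment 1 the log2 fold change was 1.00 (edgeR adjusted p = 0.17), with shSmndc1 replicate 3 the highest at 1.8 CPM.

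Col11a2, the most abundant collagen transcript, varied widely between replicates in every group except shSmndc1. EV libraries held 48.9, 8.03 and 16.5 CPM, shSmndc1 libraries 31.3, 37.6 and 28.3 CPM, and EV_RIP libraries 7.94, 31.6, 14.1 and 19 CPM. Negative cells had 16, 63.1, 74.2 and 61.5 CPM and positive cells 11.3, 37.7, 12.5 and 37 CPM. The ratio of the highest to the lowest EV library was 6.09. None of the 3 comparisons with the controls was called (log2 fold changes 0.41, 1.55 and 0.43, edgeR adjusted p = 0.62, 0.0548 and 0.57). Without EV replicate 1, the highest control, the value in shSmndc1 was 1.39 and was called (edgeR adjusted p = 0.0317). In negative cells it was called by DESeq2 (adjusted p = 0.0464), by edgeR with no filter or a replicate block (0.00531 and 0.00324), and without EV_RIP replicate 2, negative replicate 1 or positive replicate 1 (0.0317, 0.00763 and 0.0463).

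Basement membrane collagen IV is made of alpha1 with alpha2 chains nearly everywhere and of alpha3, alpha4 and alpha5 chains in a few tissues, such as the kidney. These genes lie in pairs that start back to back: Col4a1 and Col4a2 overlap by 22 bases at their starts, Col4a4 and Col4a3 start 71 bases apart, and Col4a6 and Col4a5 1308 bases apart. The promoter of the first pair, read on the Col4a1 strand (chr8:11312777-11313076, RefSeq, GRCm38.p6, strand -), is shown because its genes start within it and differ in level; capitals mark CCAAT, searched on both strands, and GGGCGG.
Col4a1: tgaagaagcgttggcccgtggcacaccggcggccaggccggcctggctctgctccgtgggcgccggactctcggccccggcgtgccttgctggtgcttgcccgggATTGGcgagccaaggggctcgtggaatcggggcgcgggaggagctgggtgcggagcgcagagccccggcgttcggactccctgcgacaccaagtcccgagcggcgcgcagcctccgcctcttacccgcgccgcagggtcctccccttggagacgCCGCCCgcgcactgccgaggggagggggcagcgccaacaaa
CCAAT was found in 13 of 35 collagen genes with a window and in 41.1% of all genes (37.4% of all promoters). Col4a1 averaged 0.155 ± 0.0729 FPKM in EV (SD, n = 3) and Col4a2 0.0106 ± 0.00943 FPKM, while the pair on chromosome 1 was more even, at 0.187 ± 0.0254 FPKM for Col4a3 and 0.236 ± 0.0881 FPKM for Col4a4. Col4a5 was listed at 0 in EV, shSmndc1 and EV_RIP.

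None of the 3 type IV genes tested was called in any comparison by the main edgeR test. At its unadjusted p under 0.05 there were 2, 0 and 1 in shSmndc1, negative and positive cells. The EV libraries held 1.3, 0.467 and 1.33 CPM of Col4a1, and those of shSmndc1 2.16, 2.15 and 2.21 CPM. The shSmndc1 libraries were all above EV, and the log2 fold change of 1.08 had an edgeR adjusted p of 0.0854 and a DESeq2 adjusted p of 0.0365. With no filter on low counts, edgeR called Col4a1 there (adjusted p = 0.017). In positive cells it had 1.98, 1.65, 1.85 and 1.47 CPM against 1.33, 1.24, 1.02 and 0.952 CPM in EV_RIP, without overlap, at 0.61 (edgeR adjusted p = 0.0886, DESeq2 adjusted p = 0.0396). Col4a3 and Col4a4 had log2 fold changes from -0.61 to -0.20 over the 3 comparisons. Col4a6 did not pass the main filter on low counts. With no such filter, edgeR called it higher in negative cells (log2 fold change 1.90, adjusted p = 0.0299). It was also called there without EV_RIP replicate 2 or 4, negative replicate 1, or any 1 positive library.

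FACIT collagens bind to the surface of fibrils, and Col12a1 and Col14a1 of this class were called in negative cells. Col12a1 had 0.0208, 0.177, 0.194 and 0.104 CPM in EV_RIP and 0.209, 0.9, 0.361 and 1.15 CPM in negative cells, just without overlap, and the log2 fold change was 2.37 (SE 0.664; adjusted p by edgeR, 0.0321). Col14a1 had 0.271, 0.324, 0.227 and 0.104 CPM in EV_RIP and 0.209, 1.29, 0.601 and 1.67 CPM in negative cells, where replicate 1 lay inside the EV_RIP range, at 2.02 (SE 0.585, edgeR adjusted p = 0.0357). Both calls were lost without any 1 of EV_RIP replicates 1, 3 and 4 or negative replicates 2, 3 and 4, with adjusted p from 0.0517 to 0.122 for Col12a1 and from 0.0558 to 0.139 for Col14a1. In positive cells both had a log2 fold change of 1.18 and were not called. Col20a1, Col9a3 and Col22a1, the 3 most abundant of the class, were called in no comparison of the main test. Their log2 fold changes in negative cells were 1.21, 1.32 and 0.84 (edgeR adjusted p = 0.096, 0.0781 and 0.289). Col9a3 was called there by DESeq2 (adjusted p = 0.0263) and by edgeR with no filter or a replicate block (0.027 and 0.0189). Col20a1 was called there by edgeR with no filter or a block (0.0302 and 0.00375), and in positive cells with the block (0.0305). Both were called in negative cells without EV_RIP replicate 2 or without negative replicate 1. Col16a1 had log2 fold changes of 0.27, 0.01 and -0.14 in the 3 comparisons.

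Among the short-chain and anchoring collagens, Col8a1, a network-forming chain of vessel walls and the cornea, was called lower in shSmndc1 and in positive cells. EV libraries held 0.712, 1.61 and 3.43 CPM and shSmndc1 libraries 0.474, 0.33 and 0.431 CPM, with no overlap and a wide spread in EV. This was a log2 fold change of -2.23 with SE 0.541 and an adjusted p by edgeR of 0.0292, lost when EV replicate 2 or 3 was left out (0.0751 and 0.117) or shSmndc1 replicate 2 was (0.0928). Without EV replicate 3 the value itself was -1.52. Levels in experiment 2 were 1.17, 0.805, 1.44 and 3.42 CPM for EV_RIP, 1.07, 0.272, 0.962 and 0.397 CPM in negative cells, and 0.926, 0.314, 0.218 and 0.23 CPM in positive cells. Positive replicate 1 overlapped EV_RIP and the other 3 did not. On the log2 scale the fold change was -1.97 in positive cells (SE 0.584, edgeR adjusted p = 0.0343) and -1.42 in negative cells (SE 0.592, edgeR adjusted p = 0.111). The call in positive cells was lost without EV_RIP replicate 1, 3 or 4 (adjusted p = 0.054, 0.0595 and 0.106) or positive replicate 2, 3 or 4 (0.0981, 0.085 and 0.0877). Without positive replicate 1 the value was -2.73. Its promoter is shown as that of the gene that fell in both experiments, with GGGCGG in capitals (chr16:57754688-57754987, RefSeq, GRCm38.p6, strand -).
Col8a1: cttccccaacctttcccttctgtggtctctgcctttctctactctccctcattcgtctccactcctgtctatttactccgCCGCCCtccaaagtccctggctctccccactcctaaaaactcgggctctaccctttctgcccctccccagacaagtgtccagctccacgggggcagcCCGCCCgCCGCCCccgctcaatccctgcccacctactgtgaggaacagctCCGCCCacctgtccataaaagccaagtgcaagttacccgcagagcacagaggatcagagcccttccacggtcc

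Col8a2, the partner chain of Col8a1, was higher in negative cells, on few counts. EV_RIP libraries held 0.0625, 0.0491, 0.0324 and 0 CPM, which are 0 to 5 counts, and negative cells 0.288, 0.379, 0 and 0.754 CPM. The 0 in negative replicate 3 allows up to 0.371 CPM at its depth, counting 3 counts as the limit. Its log2 fold change was 3.30 (SE 0.817; adjusted p by edgeR, 0.0214), lost without EV_RIP replicate 1 or 3 (0.0553 and 0.0582) or negative replicate 2 or 4 (0.0625 and 0.0873), and that in positive cells was 2.38 (edgeR adjusted p = 0.0615). Col8a2 was not tested in experiment 1.

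Col7a1 forms anchoring fibrils under epithelia. Its levels were 0.375, 1.28, 1.31 and 1.39 CPM for EV_RIP, 1.65, 4.81, 5.29 and 4.61 CPM in negative cells, and 1.16, 4.97, 2.81 and 3.76 CPM in positive cells. Replicate 1 was the lowest library in all 3 groups. The log2 fold changes were 1.88 in negative (SE 0.478, edgeR adjusted p = 0.0235) and 1.53 in positive cells (SE 0.471, edgeR adjusted p = 0.0389). The first was lost without EV_RIP replicate 1 or 3 or negative replicate 2, 3 or 4 (adjusted p from 0.051 to 0.0808), and the second without EV_RIP replicate 1, 3 or 4 or positive replicate 2, 3 or 4 (from 0.052 to 0.126). In experiment 1 it was 0.70 (edgeR adjusted p = 0.245).

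Of the 4 transmembrane collagens, which keep their helix outside the cell and their start inside, Col23a1 was called in negative cells. Its levels were 0.125, 0.412, 0.389 and 0.0414 CPM for EV_RIP, 0.759, 2.57, 1.32 and 3.41 CPM in negative cells and 0.19, 0.366, 0.436 and 1.35 CPM in positive cells. All 4 negative libraries were above EV_RIP, and the positive libraries overlapped it. A log2 fold change of 3.00 was found for negative cells (SE 0.681; adjusted p by edgeR, 0.0171), lost without EV_RIP replicate 1 (0.0558) or negative replicate 2 or 4 (0.0573 and 0.0695), and 1.17 in positive cells (edgeR adjusted p = 0.242). Col13a1, Col17a1 and Col25a1 were called in no comparison, with log2 fold changes from -0.78 to 0.27 against the controls. The multiplexins Col15a1 and Col18a1, basement membrane collagens with trimmed end fragments, were not called either, with values from -0.71 to 0.47 against the controls.

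Of the 7 genes called in negative cells, Col2a1, Col7a1, Col12a1, Col14a1, Col23a1 and Col1a1 had their lowest negative level in replicate 1, and Col8a2 in replicate 3. Without negative replicates 3 and 4 together, 0 of 32 collagen genes were called in negative cells by edgeR (11 at an unadjusted p under 0.05) and 4 genes in all were. Without negative replicate 1, 13 of 32 were higher, among them Col11a2, Col9a3 and Col20a1, and 3 were lower. The Rn7sk level was also lowest in replicate 1, being 4.53 CPM there and 18.6 to 161 CPM in the others. The order of the others was not shared by all these genes. Rn7sk was highest in replicate 3, where Col2a1 and Col7a1 were also highest. Col12a1, Col14a1 and Col23a1 were lower there than in replicates 2 and 4, and Col1a1 and Col8a2 were highest in replicate 4. Replicate 3 was the shallowest library, where 3 counts make 0.371 CPM. Malat1, a nuclear RNA, was at 450 to 688 CPM in negative cells against 109 to 286 CPM in EV_RIP. Positive cells had 287 to 670 CPM of Malat1 and 2.44 to 4.68 CPM of Rn7sk. Smndc1 stood at 23.9 CPM in negative replicate 1 and at 36.3 to 44.6 CPM in replicates 2 to 4, against 37.6 to 54.9 CPM in EV_RIP. The part of Rn7sk, Malat1 and Smndc1 levels in the collagen values was not tested. Among all genes under 1 CPM, 11.5% were higher and 0.429% lower in negative cells, where 5 of the 12 collagen genes at that level were higher.

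**Figure D4:**
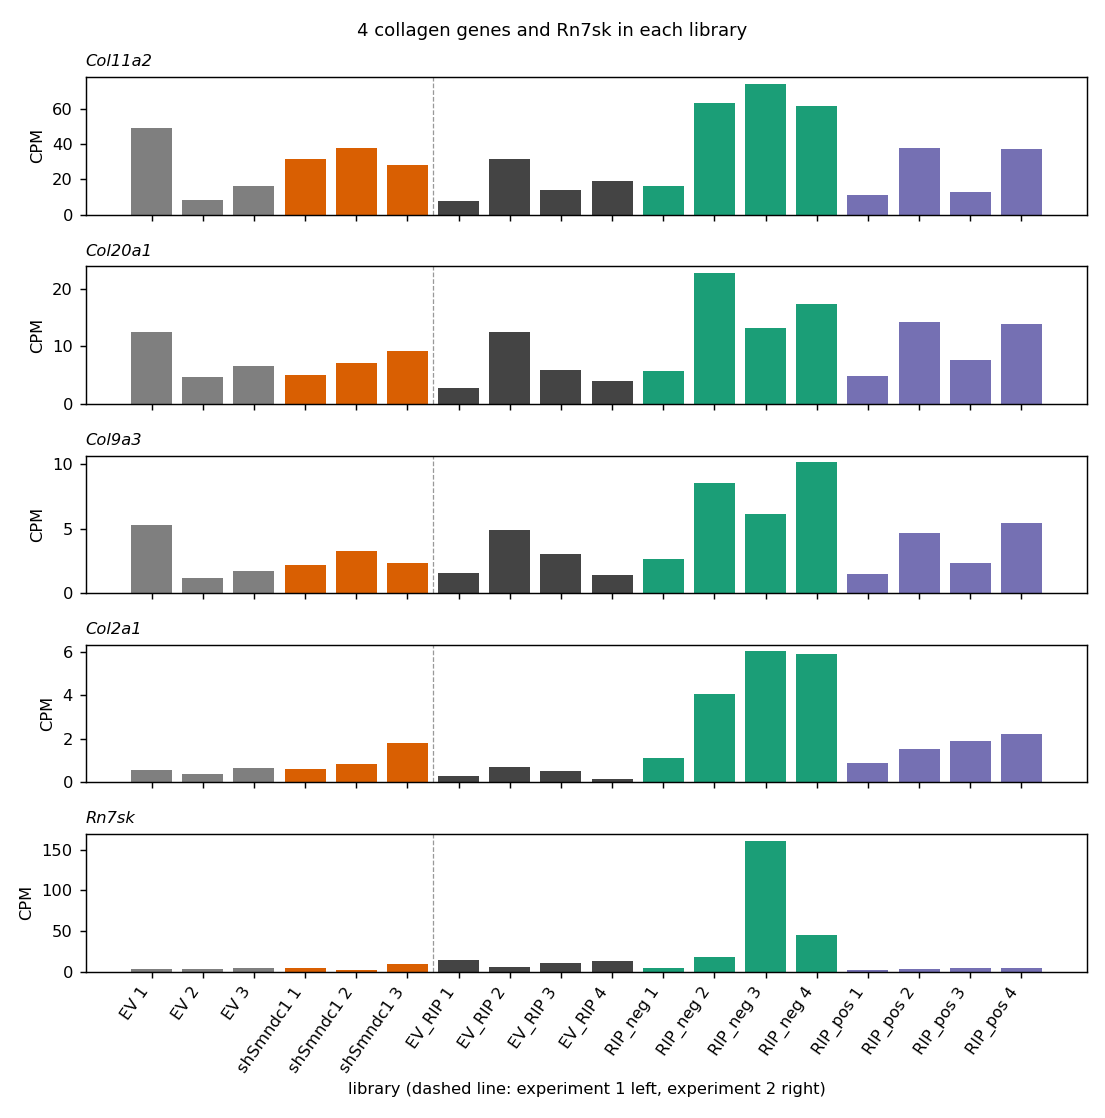
CPM per library (linear axes from 0) for Col11a2, Col20a1, Col9a3, Col2a1 and the RNA Rn7sk, with bars coloured by group and a dashed line between experiments. The 4 collagen genes are higher in negative replicates 2 to 4 than in replicate 1, and Rn7sk reaches 161 CPM in negative replicate 3.

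Col11a2, Col9a3 and Col20a1 varied by library also in groups without the shRNA. In EV, replicate 1 was the highest and replicate 2 the lowest for all 3 genes. In EV_RIP, replicate 2 was the highest for all 3, and in negative and in positive cells replicate 1 was the lowest for all 3. The highest library exceeded the lowest by 2.66 to 6.09 times in EV, by 3.41 to 4.42 times in EV_RIP, by 1.33 to 1.82 times in shSmndc1, by 3.85 to 4.62 times in negative and by 2.96 to 3.65 times in positive cells. Over experiment 2, the highest library was a negative one for 17 of the 30 tested collagen genes, a positive one for 7 and an EV_RIP one for 6, while over all 18897 genes tested the shares were 31.8%, 28.7% and 39.5%. The negative group holds the shallowest library, and the part of depth in this count was not tested.

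Positive and negative cells carry the same shRNA and were separated by the reporter signal. Smndc1 itself stood at 16.0 to 25.2 CPM in positive cells and at 23.9, 43.4, 36.3 and 44.6 CPM in negative replicates 1 to 4. The comparison is therefore not one at equal Smndc1 levels. By edgeR, in a fit that does not use the pairing by replicate number, 0 of 30 collagen genes and 0% of all genes were called between them. At an unadjusted p under 0.05 in that fit, 1 collagen gene was higher and 3 lower in positive cells (5.28% higher and 6.96% lower over all genes). The 4 were Col1a2, at 8.45 ± 1.89 CPM in positive and 4.66 ± 2.03 CPM in negative cells (SD, n = 4), and Col23a1, Col2a1 and Col11a2, with log2 differences of -1.83, -1.36 and -1.12. DESeq2 called 0 collagen genes, and 107 genes higher and 205 lower in all. With the replicate number as a block, edgeR called 0 collagen genes, with 6 lower at an unadjusted p under 0.05. Over all genes it called 22 higher and 56 lower. This block also joins EV_RIP libraries by number, and a paired fit of positive and negative cells alone was not run. Without negative replicate 1, Col2a1 (-1.68, edgeR adjusted p = 0.0437) and Col4a6 (-2.23, 0.0262) were called lower in positive cells.

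Whether the effects in experiment 1 and in positive cells differed was tested over 18 libraries. By edgeR 0 of 31 collagen genes and 0% of all genes were called, with 0 higher and 1 lower (Col27a1) at an unadjusted p under 0.05, beside 2.09% and 2.21% of all genes. DESeq2 also called 0 collagen genes. The effect in negative cells was not set against that of experiment 1.

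Collagen chains are modified and folded by enzymes of the endoplasmic reticulum. Of these, 5 of 15 tested were higher in shSmndc1 and 0 lower, beside 7.22% of all genes higher. The median log2 fold change of this list was 0.53 in shSmndc1, -0.03 in negative and 0.37 in positive cells, against -0.0029, -0.0090 and 0.0011 over all genes. The genes higher in shSmndc1 were Fkbp14, a peptidyl-prolyl isomerase (10.8 ± 0.423 CPM in EV and 31.6 ± 5.54 CPM in shSmndc1, SD, n = 3, log2 fold change 1.55), P4ha2, a prolyl 4-hydroxylase subunit (1.03), P3h1, a prolyl 3-hydroxylase (1.06), and the lysyl hydroxylases Plod3 (0.56) and Plod1 (0.44). Fkbp14 (0.82) and P4ha2 (0.61) were also the 2 of 16 called in positive cells, beside 8.47% of all genes higher. In negative cells P4ha1 (0.50) and Fkbp10 (1.60) were higher and the isomerase Ppib lower (-0.44), beside 8.17% and 5.69% of all genes.

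Large procollagen leaves the reticulum in enlarged COPII carriers. Of 10 genes of this export list, the coat subunits Sec23a (0.92) and Sec24d (0.57) were higher and Klhl12, a ubiquitin ligase adaptor that enlarges the carriers, lower (-0.55) in shSmndc1. Sec23a was also higher in negative (0.47) and positive cells (0.62), and Klhl12 lower in positive cells (-0.73). Of the list for propeptide removal and crosslinking, Tgm2, a transglutaminase, was higher in shSmndc1 (2.22) and in negative cells (1.31), and Bmp1, the procollagen C-proteinase, in shSmndc1 (0.61). These were 2 of 8, 1 of 9 and, in positive cells, 0 of 9 genes, with 0 lower and 2 of the 9 at an unadjusted p under 0.05 in positive cells. Over all genes, 7.22% were higher and 7.5% lower in shSmndc1. The shares were 8.17% and 5.69% in negative cells and 8.47% and 8.92% in positive cells.

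Of genes for collagen breakdown, 3 of 8 were higher in shSmndc1 (Mmp9, Reck and Ctsl), 4 of 10 in negative cells (Mmp2, Mmp15, Mmp13 and Mmp9) and 2 of 10 in positive cells (Mmp13 and Mmp9), beside 7.22%, 8.17% and 8.47% of all genes. Mmp9, a gelatinase that cuts denatured collagen, had log2 fold changes of 1.92, 1.50 and 1.67 in the 3 comparisons. Reck, in shSmndc1 at 1.24, restrains such proteases. Timp2, their tissue inhibitor, was lower in negative cells (-0.75). Among collagen receptors, Adgrg1, an adhesion receptor that binds type III collagen, was higher in shSmndc1 (0.69) and positive cells (0.59). The integrin subunit Itgav was lower in shSmndc1 (-0.62). Thus 1 of 10 was higher and 1 lower in shSmndc1, beside 7.22% and 7.5% of all genes. In positive cells 1 of 11 was higher, beside 8.47% of all genes. In negative cells 0 of 11 were called by edgeR (2 at an unadjusted p under 0.05).

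Laminins and other partners of collagen IV in basement membranes had 2 of 11 higher in shSmndc1 (Lamc1, 1.03, and the laminin receptor Dag1, 0.68). In negative cells 4 of 13 were higher, Lama1, Lamc3 and Lama5 among them. In positive cells 3 of 13 were higher (Lamb2, Lamc1 and Lama1), with 0 lower in each comparison. Over all genes, 7.22%, 8.17% and 8.47% were higher in shSmndc1, negative and positive cells. Of genes of the TGF-beta pathway and TEAD targets linked to matrix, Tgfb2, a secreted ligand, was the 1 of 6 higher in shSmndc1 (1.45). It was also higher in negative (1.42) and positive cells (1.46), where 2 and 1 of 8 genes were higher, Smad7 being the other in negative cells. The same shares of all genes stand beside these counts.

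Markers of cells that make collagen in the pancreas were mostly low. Summed over 12 fibroblast and stellate cell markers without collagens, levels ranged from 10.8 to 13.9 CPM in EV, 15.5 to 21.8 CPM in shSmndc1, 12.1 to 18.5 CPM in EV_RIP, 16.5 to 21.2 CPM in negative and 22.7 to 25.1 CPM in positive cells. Of these, 4 averaged at least 1 CPM in each group, namely Rgs5 (3.12 to 8.72 CPM over the group means), Fbn1 (3.82 to 6.74), Tagln (2.07 to 2.43) and Pdgfra (1.15 to 5.19). Lum was at 0 in every group, Vim averaged at most 0.235 CPM and Dcn at most 0.16 CPM. Of 4 tested in experiment 1, Pdgfra, a receptor of mesenchymal cells, was higher in shSmndc1 (1.57), beside 7.22% of all genes. Of 7 tested in experiment 2, Pdgfra (1.64) and Fap (1.78) were higher in positive cells and 0 in negative cells, beside 8.47% and 8.17% of all genes. Summed over 7 endothelial markers, negative cells had 4.19 to 12.5 CPM and EV_RIP 3.03 to 4.10 CPM, and 3 of 4 tested were higher (Esam, Tek and Pecam1), beside 8.17% of all genes. Of the same 4, Esam was the 1 higher in shSmndc1 (2.21) and in positive cells (2.17), where the sums were 3.49 to 4.84 CPM and 3.05 to 6.95 CPM. Over all genes, 7.22% and 8.47% were higher in these comparisons. The part of such cells in the collagen values was not tested.

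The other 14 collagen genes were tested in neither experiment. They held between 1 and 150 counts over the 18 libraries, and none reached more than 0.137 FPKM in any library. Where alternatives let them be tested, edgeR called Col4a6, Col5a3 and Col26a1 higher in negative cells in at least 1 of them. Of the 44 genes, 13 share exonic bases with another gene, at most 6.07% of their length (Col9a3 with Tcfl5 on the other strand). This is a share of length and not of reads, and how many reads such neighbours share was not tested.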

How the data were processed

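The authors deposited 1 table of raw counts per Ensembl gene for each experiment, with whole-number count values that had not been scaled, and 1 table of FPKM. Within each experiment, the deposited FPKM values equal these counts times 1 constant per gene and 1 per library. The relative deviation was at most 4.4e-16 and 5.6e-16 over 21364 and 18662 genes. The check did not compare the gene constant with gene length, or the library constant with a size factor of DESeq2. GRCm38/mm10 is the build that the submitters' processing notes name, and the tools they name are DESeq2 1.30.0, STAR 2.7.5a and Picard 2.19.2. What counted the reads, and whether by strand, is not given in the sources used here, so reads of overlapping genes may be shared. Per the labels' protocols, the libraries were of stranded mRNA with paired reads of 75 bp. FPKM values were set across the 2 experiments only as levels, since each was scaled separately.

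The test was edgeR's quasi-likelihood test (edgeR 4.0.16, R 4.3.3) after filterByExpr and TMM scaling, adjusted by Benjamini-Hochberg over all genes tested, with 0.05 as threshold. Experiment 1 was 1 fit of 6 libraries and experiment 2 1 fit of 12, and the difference between experiments was a contrast over 18. The standard error is the log2 fold change over the root of its F statistic. Alternatives were RLE scaling, DESeq2 1.42.0, other filters, a replicate block, fits of 2 groups, and leaving out libraries. The code was tested on simulated data. Replicate numbers pair negative with positive cells: over all tested genes, deviations of same-numbered libraries correlated at 0.224 to 0.714, each number best with itself in 4 of 4. Total counts limit the precision of the few counts behind most collagen genes, and limits for a count of 0 cover counting error only.

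Exon overlaps come from GENCODE for GRCm38, where all 44 genes have the deposited coordinates. Promoters are those of RefSeq for GRCm38.p6, matched by symbol for 35 of 44 genes. Named with values were Smndc1, every collagen gene past the threshold or with a mean of at least 1 FPKM in a group, and up to 4 genes per list and comparison with the smallest p; Plod1, Vim, Dcn, Rgs5, Fbn1, Tagln, Rn7sk, Malat1, Col3a1, Col16a1, Col5a1 and the partner chains were named beyond this rule. The members and gene lists were chosen with earlier results of these data known.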

Additional observations from a re-analysis of the deposited data

Results flagged for a closer look

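In the groups of 4 libraries, 90 sets of values of collagen genes were checked for 1 library far from the other 3, and 7 were found. Chance alone gives about 1 in 20 sets. Negative replicate 1 had 3.35 CPM of Col25a1, where the other negative libraries had 0.794 to 1.21 CPM. Positive replicate 3 had 0.927 CPM of Col15a1 against 1.32 to 1.37 CPM. Col6a2 was at 0.24 CPM in negative replicate 3, the shallowest library, against 0.635 to 0.654 CPM, and these are 2 counts. Negative replicate 4 had 0.516 CPM of Col6a5 against 0.107 to 0.131 CPM, and 0.596 CPM of Col1a1 against 0.34 to 0.361 CPM. EV_RIP replicate 1 had 0.375 CPM of Col7a1 against 1.28 to 1.39 CPM. Positive replicate 1 had 0.926 CPM of Col8a1, the gene called lower in positive cells, against 0.218 to 0.314 CPM in the other 3.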

How the results depend on the processing

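No call of a collagen gene changed direction in the alternatives run. In shSmndc1 against EV, the number higher was 1 at a mean of at least 1 CPM, and leaving out 1 library gave 1 to 3 higher and 0 to 2 lower. In negative cells against EV_RIP, the number higher was 11 with no filter, 3 at a mean of at least 1 CPM, 4 in a fit of the 2 groups alone and 0 without negative replicates 3 and 4, and leaving out 1 library gave 1 to 13 higher and 0 to 3 lower. In positive cells against EV_RIP, the number higher was 2 without negative replicates 3 and 4, and the number lower was 2 with DESeq2, 2 with no filter, 0 at a mean of at least 1 CPM and 2 in a fit of the 2 groups alone. Leaving out 1 library gave 0 to 4 higher and 0 to 2 lower there. Between positive and negative cells it gave 0 to 2 lower and 0 higher, and for the difference between experiments 0 and 0. The cause of these changes was not tested. Fewer genes tested and fewer libraries are part of their construction.

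With the replicate number as a block, 10 collagen genes were higher and 1 lower in negative cells (7 and 0 without it), and 5 were higher and 2 lower in positive cells (4 and 1 without it). For these comparisons and for experiment 1 the numbers do not pair the libraries, since correlations of same-numbered libraries ran from -0.337 to 0.596, from -0.0605 to 0.506 and from -0.0254 to 0.312, and libraries correlated best with their own number in 2 of 4, 2 of 4 and 1 of 3. Over all genes the block gave 2421 higher and 2176 lower in negative cells (1544 and 1076 without it) and 2508 and 2571 in positive cells (1600 and 1686 without it). DESeq2 called 2027 and 2043 genes in experiment 1 (edgeR 1315 and 1366). In negative cells it called 2234 and 1619. Without EV replicate 3, edgeR called 71 and 110 genes in experiment 1. Most collagen genes rest on few counts per library, which limits what these fits can show.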
